A study of Mus musculus with 3 samples.

Results

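The collagen genes were followed through RNA sequencing of C2C12 myotubes. Members were all rows of the deposited gene table whose single symbol names a collagen alpha chain (Col, a type number, a and a chain number), and there were 44 among 24401 loci. Of these, 19 had a mean of 1 FPKM or more over the 3 libraries, and ratios were computed for those alone. C2C12 is a mouse myoblast line, and its cells had been turned into myotubes over 72 hours, in DMEM that held 2% horse serum plus insulin at 1 µg/ml. The resveratrol library came from myotubes kept for 24 hours in medium conditioned for 24 hours by S2-013 cells, a human pancreatic cancer line, to which 50 µM resveratrol, a plant polyphenol, was added. The conditioned media library came from myotubes given such medium without resveratrol. The control library came from myotubes given DMEM. All came from the same line and differentiation, and the labels name the cell type as myoblast. Resveratrol without conditioned medium was not analysed here, so its effect alone and its effect in conditioned medium cannot be told apart. The labels leave out how much serum each medium held during treatment and which solvent carried resveratrol. Differences in serum or solvent therefore cannot be told apart from those in conditioned medium or resveratrol. Each condition has 1 library, so the differences below have no replicate check and carry neither an SD nor a p-value.

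Collagens are extracellular proteins of 3 alpha chains wound into a triple helix, in which glycine takes the third place of each repeat. Fibrillar chains build the ropes of connective tissue, type IV chains build the sheet of the basement membrane that surrounds each muscle fibre, and FACIT chains (fibril-associated collagens with interrupted triple helices) sit on fibril surfaces. Type VI chains form beaded filaments that link the basement membrane to the matrix around it. In muscle most fibrillar collagen is made by fibroblasts, but myoblast lines also transcribe these genes.

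The gene structures differed between classes. In GENCODE M21, 535 of 649 coding exons of the 11 fibrillar genes had a length that was a multiple of 9 bases, which is the length of 1 glycine-led triplet, and 305 of them were exactly 54 bases long. That is 82.4% and 47.0% of their exons, against 45.9% and 4.05% in the 6 type IV genes and 53.0% and 25.2% in the 9 FACIT genes. Among 19176 other genes of the table the shares were 13.96% and 0.416%. Col8a1 and Col8a2, short-chain network collagens, have 2 coding exons each.

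The cultures carried the markers of myotubes. All 9 myotube markers had a mean of 1 FPKM or more, and their FPKM summed to 6379.61 in the resveratrol library, 4406 in the conditioned media library and 5052 in the control library. Osteoblast markers summed to 0.593 FPKM with resveratrol, 1.18 FPKM in conditioned media and 1.04 FPKM in control, with Ibsp, bone sialoprotein, listed at 0 in all 3. Chondrocyte markers summed to 0.892 FPKM with resveratrol, 2.58 FPKM in conditioned media and 0.711 FPKM in control. Of 7 fibroblast markers 6 had a locus of their own, 3 had a mean of 1 FPKM or more, and Tcf21 was listed at 0 in all 3 libraries. They summed to 54.1 FPKM with resveratrol, 63.3 FPKM in conditioned media and 37.4 FPKM in control, most of it from Dcn, which the list of fibril partners also holds. Adipocyte markers summed to 0.238 FPKM with resveratrol, 0.425 FPKM in conditioned media and 0.118 FPKM in control. Endothelial markers summed to 0.0789 FPKM with resveratrol, 0.387 FPKM in conditioned media and 0.0966 FPKM in control. Of the macrophage markers, Adgre1 and Ptprc were listed at 0 in all 3 libraries. Cd68, on the same list, was at 1.82 FPKM with resveratrol, 1.49 FPKM in conditioned media and 1.02 FPKM in control. Smooth muscle markers summed to 772 FPKM with resveratrol, 604 FPKM in conditioned media and 1207 FPKM in control. Most of this came from Acta2, at 637 FPKM with resveratrol, 468 FPKM in conditioned media and 892 FPKM in control. Myh11, on the same list, was at 0.143 FPKM with resveratrol, 0.0742 FPKM in conditioned media and 0.00589 FPKM in control. Acta2 and Tagln were higher with resveratrol than in conditioned media, and Actg2 and Cnn1 lower. The FPKM of loci over 200 bases summed to between 575680 in control and 639296 in the resveratrol library. Read totals are unknown.

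Col3a1, the chain of type III collagen, was the most abundant member in every library. It stood at 1765 FPKM in the resveratrol library, 2216 FPKM in the conditioned media library and 1483 FPKM in the control library, which placed it at rank 35 with resveratrol, 16 in conditioned media and 26 in control among 23995 loci over 200 bases. The gene holds a small RNA gene, whose reads its value may include. Next came the pair of chains of type I collagen, the main protein of fibrils. Col1a2 stood at 596 FPKM in the resveratrol library, 1002 FPKM in conditioned media and 905 FPKM in control. Col1a1 stood at 527 FPKM with resveratrol, 1056 FPKM in conditioned media and 899 FPKM in control. Together the 44 genes summed to 4089 FPKM in the resveratrol library, 6248 FPKM in conditioned media and 5030.0 FPKM in control. As a share of the FPKM in loci over 200 bases these sums are 0.640% with resveratrol, 1.02% in conditioned media and 0.874% in control. The 11 fibrillar genes held 82.5% of the collagen sum with resveratrol, 81.1% in conditioned media and 79.9% in control. The type IV genes held 2.81% with resveratrol, 2.09% in conditioned media and 2.49% in control, the FACIT genes 1.86% with resveratrol, 2.92% in conditioned media and 3.42% in control, and the type VI genes 10.3% with resveratrol, 11.4% in conditioned media and 10.8% in control.

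**Figure D1:**
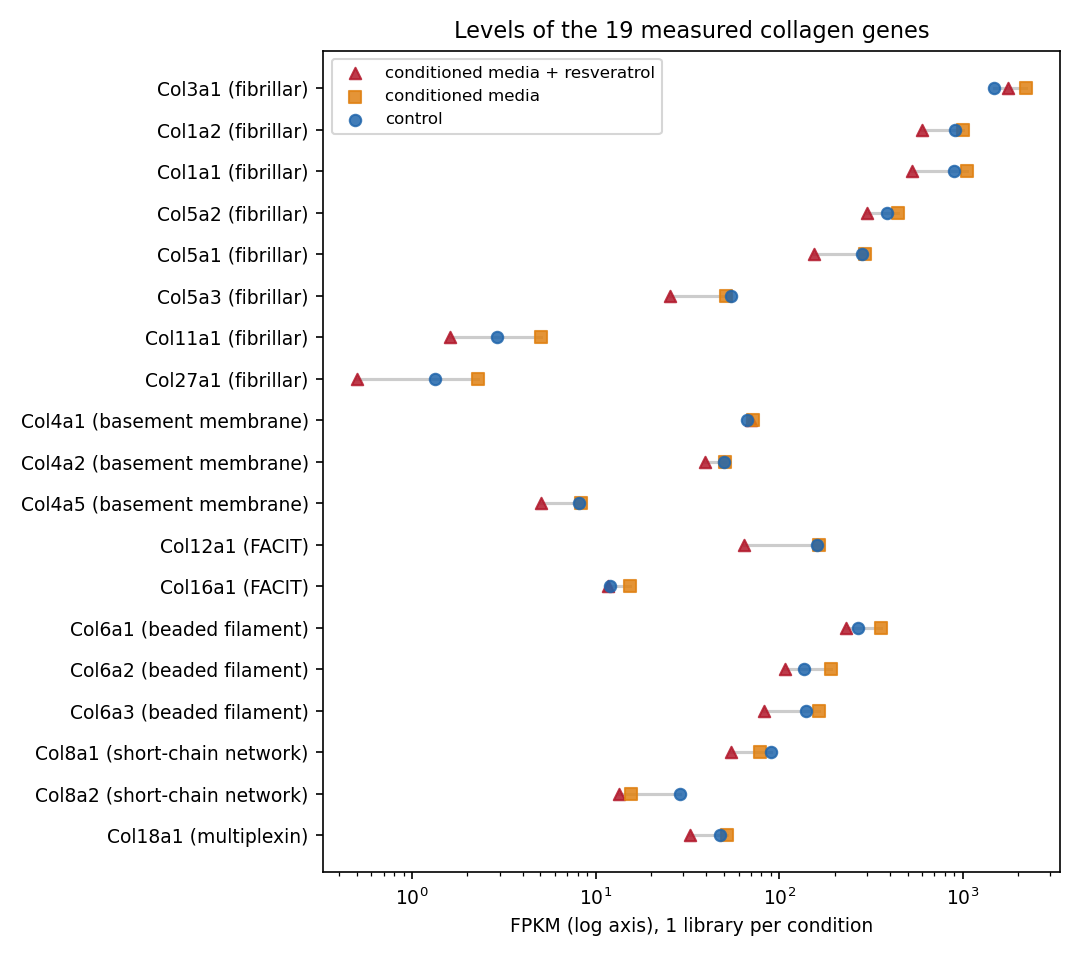
FPKM of each of the 19 measured collagen genes on a log axis, with 1 symbol per library and genes ordered by class and mean. The resveratrol library lies lowest for 17 of 19 genes, and Col3a1 and Col4a1 are the ones where it lies above control.

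The first comparison asks how collagen transcripts in conditioned medium differed once resveratrol was added. All 19 measured genes were lower in the resveratrol library than in the conditioned media library as deposited, while of all loci 47.4% were lower and 52.5% higher. This background is the set of 11858 loci that averaged at least 1 FPKM. The signs stayed under 3 other scalings, but each of these lowers the resveratrol library relative to conditioned media. They could not have turned a sign here and are no check. The median log2 ratio, on the log2(FPKM + 1) scale that understates the change of low genes, was -0.66, against 0.025 over all loci. The size rule asked for an absolute log2 ratio of 1 or more. It was passed by 4 of 19 members, all lower, against 4.97% of all loci on the lower side and 1.53% on the higher side. A change of 1.5-fold was reached by 12 of 19, all lower, against 12.6% of all loci lower and 7.59% higher by that much. The authors' deposited table tested 18 of them and calls 17 lower, against 29.5% of its 11033 tested loci called lower, and Col4a1 is the one it does not call. Its calls compare these libraries, not the conditions. In a bulk culture, fewer cells of a type and less RNA per cell cannot be told apart.

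Col12a1, a FACIT chain that bridges fibrils and other matrix proteins, had the lowest log2 ratio on the log2(FPKM + 1) scale. Its level was 63.9 FPKM in the resveratrol library against 165 FPKM in conditioned media and 159.8 FPKM in control, a log2 ratio of -1.36 for resveratrol over conditioned media. It lies at chr9:79598923-79718887 (mm10). The resveratrol library is low and the other 2 lie close together. The order depends on the pseudocount, since by plain FPKM the resveratrol library held 38.6% of the conditioned media level for Col12a1 but 31.9% for Col11a1 and 21.8% for Col27a1, both of low level. At a pseudocount of 0.1 FPKM the log2 ratios were -1.37 for Col12a1, -1.59 for Col11a1 and -1.99 for Col27a1. The other measured FACIT, Col16a1, which sits on fibrils and microfibrils, was at 11.7 FPKM with resveratrol, 15.5 FPKM in conditioned media and 12.0 FPKM in control, with a log2 ratio of -0.38. The FACIT class therefore rests on 2 genes whose ratios lie far apart, and its median of -0.87 falls between them.

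Among the 8 measured fibrillar genes, 3 passed the size rule on the lower side, against 4.97% of all loci, and the class median was -0.95. Col11a1, a minor chain that helps to set fibril diameter, was at 1.60 FPKM with resveratrol, 5.01 FPKM in conditioned media and 2.89 FPKM in control (log2 ratio -1.21). Col27a1, a chain known from cartilage, was at 0.499 FPKM with resveratrol, 2.29 FPKM in conditioned media and 1.33 FPKM in control (log2 ratio -1.13) and was not tested in the authors' deposited table. Its span is shared with the locus of Mir455, which it holds. The position of Col1a1 is chr11:94936205-94953043, and it had a log2 ratio of -1.0003, almost exactly on the threshold. Col5a3 and Col6a3 stood just outside it, at -0.996 and -0.985. Col5a3, a type V chain that nucleates type I fibrils, was at 25.3 FPKM with resveratrol, 51.5 FPKM in conditioned media and 54.7 FPKM in control. Its partner Col5a1 was at 155 FPKM with resveratrol, 293 FPKM in conditioned media and 284 FPKM in control (log2 ratio -0.91). Exons of Col5a1 overlap antisense transcripts in GENCODE, and the sources used here do not name the strand setting. Col1a2 had a log2 ratio of -0.75 and Col5a2, which stood at 302 FPKM with resveratrol, 442 FPKM in conditioned media and 388 FPKM in control, one of -0.55. Col3a1 had the smallest fibrillar difference, at -0.33, so its share of the collagen sum was 43.2% with resveratrol against 35.5% in conditioned media and 29.5% in control.

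**Figure D2:**
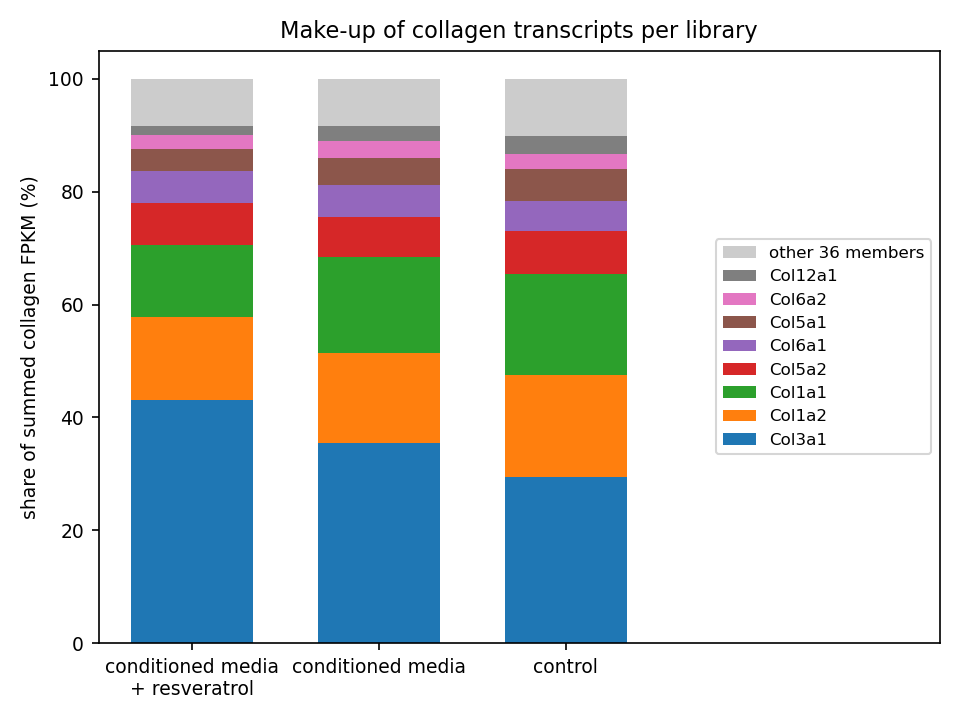
Share of the summed collagen FPKM held by the 8 most abundant genes and by the other 36 members, as stacked bars that reach 100% in each library. Col3a1 takes 43.2% with resveratrol, 35.5% in conditioned media and 29.5% in control.

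Upstream windows of Col11a1, Col1a2 and Col3a1 are shown as examples of fibrillar genes whose ratios and base composition lie apart. They are the 250 bases before the RefSeq start (GRCm38.p6, plus strand), with capitals marking, on either strand, CCAAT, the TATA box TATAAA, the GC box GGGCGG and the SMAD element CAGACA. The genes shown were chosen after their values were seen. For Col1a2 the deposited locus starts at 4505274 and the GENCODE gene at 4504814, so by both its whole window lies inside the gene. For Col3a1 the window runs past the deposited start at 45311462.
Col11a1 at chr3:114030290-114030539: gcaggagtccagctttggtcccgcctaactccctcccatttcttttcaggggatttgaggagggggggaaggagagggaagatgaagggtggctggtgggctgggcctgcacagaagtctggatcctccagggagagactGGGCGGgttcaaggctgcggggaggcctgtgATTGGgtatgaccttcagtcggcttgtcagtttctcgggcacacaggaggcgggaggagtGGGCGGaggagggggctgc
Col1a2 at chr6:4505368-4505617: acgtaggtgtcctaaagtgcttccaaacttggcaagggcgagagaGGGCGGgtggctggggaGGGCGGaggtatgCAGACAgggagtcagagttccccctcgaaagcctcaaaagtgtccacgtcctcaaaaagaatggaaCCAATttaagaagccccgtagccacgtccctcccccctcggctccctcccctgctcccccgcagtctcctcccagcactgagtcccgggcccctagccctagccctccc
Col3a1 at chr1:45311288-45311537: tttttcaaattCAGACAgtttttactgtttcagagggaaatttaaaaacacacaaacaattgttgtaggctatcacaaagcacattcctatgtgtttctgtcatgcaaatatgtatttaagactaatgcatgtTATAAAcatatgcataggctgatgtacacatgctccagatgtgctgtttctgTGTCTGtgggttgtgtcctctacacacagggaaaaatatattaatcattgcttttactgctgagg
Col1a2 holds CCAAT, the letters that NF-Y recognises, on its own strand with the first base 109 bases before the RefSeq start. Col11a1 holds it on the other strand, 79 bases before the start. The Col3a1 window has no CCAAT and no GGGCGG but holds TATAAA, and its GC content is 35.2% against 62.4% for Col11a1 and 62.0% for Col1a2. None of the matches printed overlaps another. RefSeq windows were found for 16 of the 19 measured genes, in 18 windows, and CCAAT was in 8 of them (44.4%) against 33.8% of all 32851 windows of the table. GGGCGG was in 13 (72.2%) against 32.7%, CAGACA in 5 (27.8%) against 17.1%, and TATAAA in 1 (5.56%) against 12.4%. Windows without CCAAT included those of Col27a1 (log2 ratio -1.13), Col6a3 (-0.985), Col5a1 (-0.91), Col6a2 (-0.84), Col3a1 (-0.33) and Col8a2 (-0.21). Windows with it included those of Col11a1 (-1.21), Col5a3 (-0.996) and Col4a1 (-0.026). Genes with large and small ratios thus stood on both sides, and a part of CCAAT in the ratios was not tested. Col1a1, Col5a2 and Col12a1 were not matched.

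The basement membrane class had smaller ratios, the median being -0.35 over 3 measured genes. Of these 0 passed the size rule, against 4.97% of all loci lower and 1.53% higher. That median rests on Col4a1 and Col4a2, which share a span. Without hosts of small RNA genes and shared spans, Col4a5 alone is left at -0.63, against a median of -0.75 for all members left. Col4a1, the chief type IV chain, was at 70.5 FPKM with resveratrol, 71.8 FPKM in conditioned media and 67.0 FPKM in control, so the 3 libraries lie within a narrow range. Its log2 ratio of -0.026 was the smallest of all 19. Its partner Col4a2 was at 39.4 FPKM with resveratrol, 50.4 FPKM in conditioned media and 50.1 FPKM in control, with a log2 ratio of -0.35. Col4a5, an X-linked type IV chain, was at 5.01 FPKM with resveratrol, 8.28 FPKM in conditioned media and 8.14 FPKM in control (log2 ratio -0.63). Col4a1 and Col4a2 lie head to head on chromosome 8 and are given the same span in the table, chr8:11198423-11449287. Their annotated first exons overlap, and how the authors' pipeline divided reads there is not given. They share 1 start region, so a short window around the CCAAT nearest each start is shown. It is read on that gene's own strand, with CCAAT or its reverse complement in capitals.
Col4a1 at chr8:11312954-11312983, minus strand: tgcttgcccgggATTGGcgagccaaggggc
Col4a2 at chr8:11312761-11312790, plus strand: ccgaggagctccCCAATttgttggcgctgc
The match lies 145 bases before the start of Col4a1, and 32 bases before the start of Col4a2.

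Type VI genes were lower by amounts near those of the fibrillar genes, the median being -0.84. The size rule was passed by 0 of 3 genes, against 4.97% of all loci lower and 1.53% higher. Col6a1 was at 232 FPKM with resveratrol, 359 FPKM in conditioned media and 268 FPKM in control (log2 ratio -0.63). Col6a2 was at 107 FPKM with resveratrol, 192 FPKM in conditioned media and 136 FPKM in control (log2 ratio -0.84). Col6a3, the long chain of the type VI heterotrimer, was at 82.3 FPKM with resveratrol, 164 FPKM in conditioned media and 139 FPKM in control. In all 3 genes conditioned media is the highest library and resveratrol the lowest. Col8a1 and Col8a2, which build the hexagonal network of Descemet's membrane in the eye, stood at 54.9 FPKM with resveratrol, 79.0 FPKM in conditioned media and 90.2 FPKM in control for Col8a1 and at 13.3 FPKM with resveratrol, 15.6 FPKM in conditioned media and 28.96 FPKM in control for Col8a2, the log2 ratios being -0.52 and -0.21. Col18a1, whose C-terminal fragment is endostatin, was at 32.5 FPKM with resveratrol, 51.9 FPKM in conditioned media and 47.7 FPKM in control (log2 ratio -0.66). By summed FPKM, the resveratrol library held 41.7% of the conditioned media level for FACIT genes, 59.0% for type VI, 66.6% for fibrillar, 72.2% for short-chain and 88.1% for type IV genes. Whether these classes differ was not tested, as 1 library per condition allows no test.

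Markers of other cell states moved alongside. Myoblast and proliferation markers (Myf5, Pax7, Mki67, Ccnb1 and Notch3) summed to 31.3 FPKM with resveratrol, 93.0 FPKM in conditioned media and 71.9 FPKM in control, with 4 of 5 averaging at least 1 FPKM and 0 listed at 0. The myotube sum was highest with resveratrol, with Acta1 and Mylpf its largest members. Ckm ran the other way, at 43.2 FPKM with resveratrol, 56.3 FPKM in conditioned media and 60.8 FPKM in control. The other myotube markers were higher with resveratrol than in conditioned media. The fibroblast sum was 54.1 FPKM with resveratrol against 63.3 FPKM in conditioned media. The part of these markers in the collagen ratios was not tested. Transcript length was also read: across the 19 genes, Spearman's rho between GENCODE transcript length and log2 ratio was -0.50, and across 10490 genes with 1 symbol it was -0.078. The points share the same 2 libraries, and length was not tested as a cause. Genes over 8000 bases had a median of -0.042 over 492 genes, against -0.99 for the 3 collagen genes of that length.

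The second comparison asks how myotubes in cancer cell conditioned medium differed from those in DMEM. Of the 19 genes, 16 were higher in conditioned media and 3 lower as deposited, against 48.7% of all loci higher and 51.3% lower. This split was 18 and 1 after rescaling to TPM and 12 and 7 after rescaling to loci over 200 bases, so small ratios changed sign with the scaling (Col5a3 and Col8a1 in the first; Col12a1, Col4a2, Col4a5 and Col5a1 in the second). Under these rescalings the median of all loci was 0.14 and -0.091. By the size rule 0 genes were higher and 0 lower, against 1.98% and 0.751% of all loci. At 1.5-fold, 1 was higher (Col11a1) and 1 lower (Col8a2), against 7.43% and 4.92%. Of all the loci past the size rule, 72.5% were higher as deposited and 82.95% after rescaling to TPM. The median over the 19 was 0.15, against -0.011 over all loci. The authors' deposited table calls 11 higher and 3 lower of 18 tested, against 25.8% and 29.9% of all tested loci, and does not call Col5a1, Col12a1, Col4a2 and Col4a5.

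Col3a1 and Col11a1 had the largest log2 ratios above 0, at 0.58 and 0.63, and Col27a1 and Col6a2 followed at 0.49 and 0.50. This order depends on the pseudocount and the scaling. At a pseudocount of 0.1 FPKM the ratios were 0.78 for Col11a1, 0.73 for Col27a1 and 0.58 for Col3a1, and after rescaling to TPM 0.54 for Col11a1, 0.35 for Col27a1, 0.77 for Col3a1 and 0.68 for Col6a2. Col6a1 had 0.42, Col16a1 0.34, Col6a3 and Col1a1 0.23 each, Col5a2 0.19 and Col1a2 0.15. By class the median was 0.21 for fibrillar genes, 0.20 for FACIT, 0.023 for type IV and 0.42 for type VI. Both short-chain genes were on the other side. Col8a2 had a log2 ratio of -0.85, the lowest of the 19, and Col8a1 one of -0.19, which turned positive after rescaling to TPM. Col8a2 lies at chr4:126286794-126314330 (mm10). Smooth muscle markers summed to 604 FPKM in conditioned media against 1207 FPKM in control, most of it from Acta2. The part of these markers in the Col8a2 value was not tested.

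**Figure D3:**
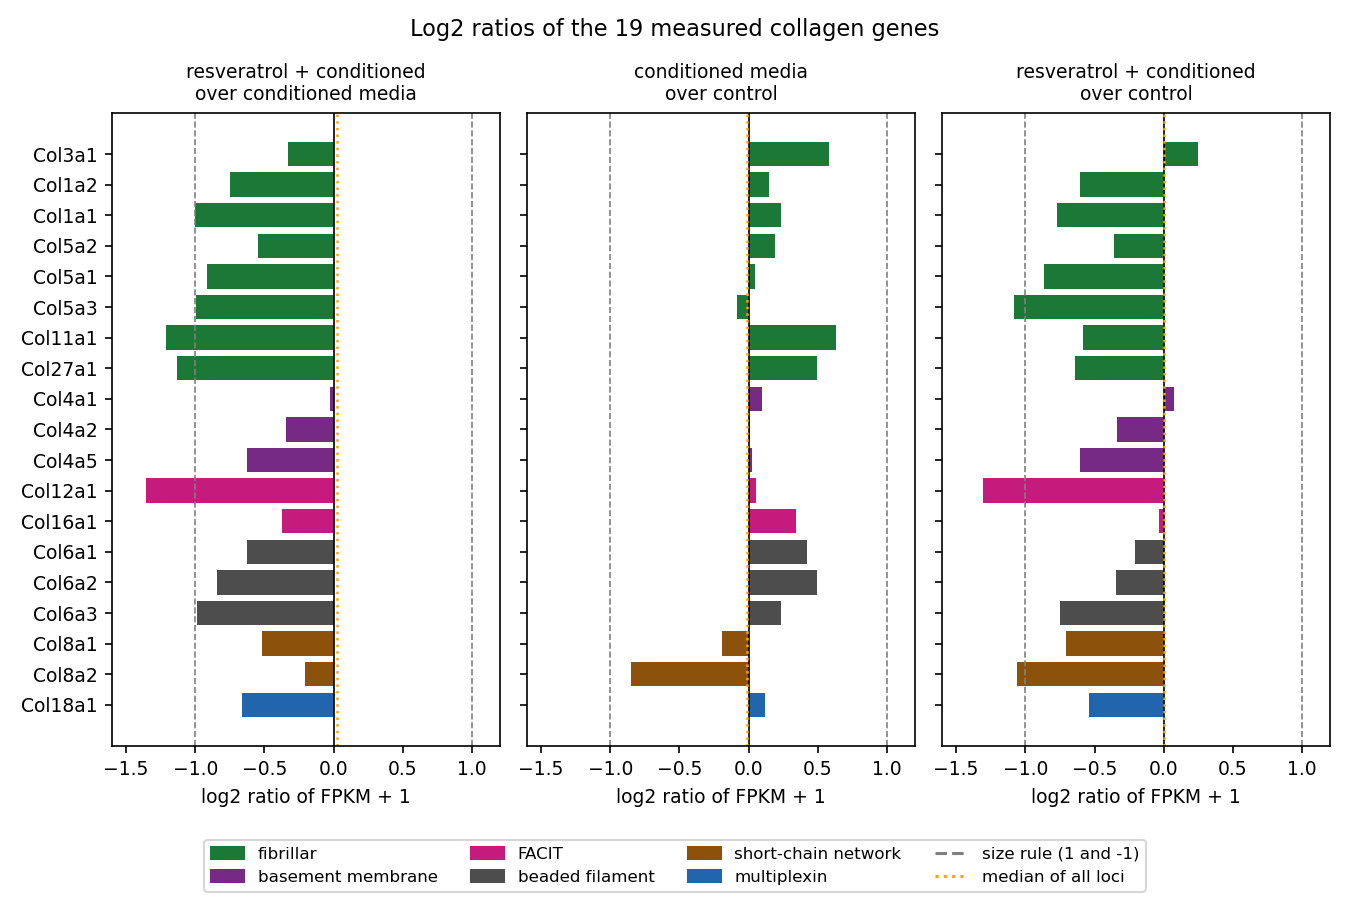
Log2 ratio of FPKM + 1 for each of the 19 genes in 3 comparisons, as bars coloured by class, with dashed lines at 1 and -1 and a dotted line at the median of all loci. All bars point left in the first panel, 16 of 19 point right in the second, and Col12a1, Col5a3 and Col8a2 pass -1 in the third.

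The third comparison sets resveratrol in conditioned medium against control, and it shares a library with each of the others. Here 17 of 19 genes were lower and 2 higher, against 49.9% of all loci lower and 50% higher, with a median of -0.60 against 0.0002 over all loci. Rescaling to TPM gave 16 lower and 3 higher, with Col16a1 changing sign, and rescaling to loci over 200 bases 18 and 1, with Col4a1 changing sign. Under these rescalings the median of all loci was 0.14 and -0.13. Of the members, 3 passed the size rule on the lower side and 0 on the higher, against 5.25% and 3.6% of all loci. Of all the loci past the rule, 40.7% were higher as deposited, 61.8% after rescaling to TPM and 25.8% after rescaling to loci over 200 bases. At 1.5-fold, 10 were lower and 0 higher, against 14% and 11.4% of all loci. The 3 past the size rule were Col12a1 (log2 ratio -1.31), Col5a3 (-1.08) and Col8a2 (-1.06). Col5a1 had -0.87, Col1a1 -0.77, Col6a3 -0.75, Col8a1 -0.71, Col27a1 -0.64, Col4a5 and Col1a2 -0.60 each, and Col11a1 -0.58. Col3a1 (0.25) and Col4a1 (0.073) were above 0. The authors' deposited table calls 15 lower and 2 higher of 18 tested, against 34.1% of all tested loci in either direction, and does not call Col16a1.

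Ratios between chains that assemble together were read within each library, since FPKM is per length. Col1a1 over Col1a2 was 0.884 with resveratrol, 1.05 in conditioned media and 0.993 in control. The type I heterotrimer holds more of the first chain than of the second. Col4a1 over Col4a2 was 1.79 with resveratrol, 1.42 in conditioned media and 1.34 in control. This pair shares a span, and how reads were divided there is not given. Col5a1 over Col5a2 was 0.513 with resveratrol, 0.663 in conditioned media and 0.733 in control. Col6a1 over Col6a2 was 2.17 with resveratrol, 1.86 in conditioned media and 1.97 in control, and Col6a3 over Col6a1 was 0.355 with resveratrol, 0.457 in conditioned media and 0.519 in control. Col8a1 over Col8a2 was 4.11 with resveratrol, 5.07 in conditioned media and 3.12 in control. The ratio of Col3a1 to Col1a1 was 3.35 with resveratrol, 2.099 in conditioned media and 1.65 in control. These ratios within a library do not depend on the scaling between libraries, and with 1 library each their error is unknown.

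**Figure D4:**
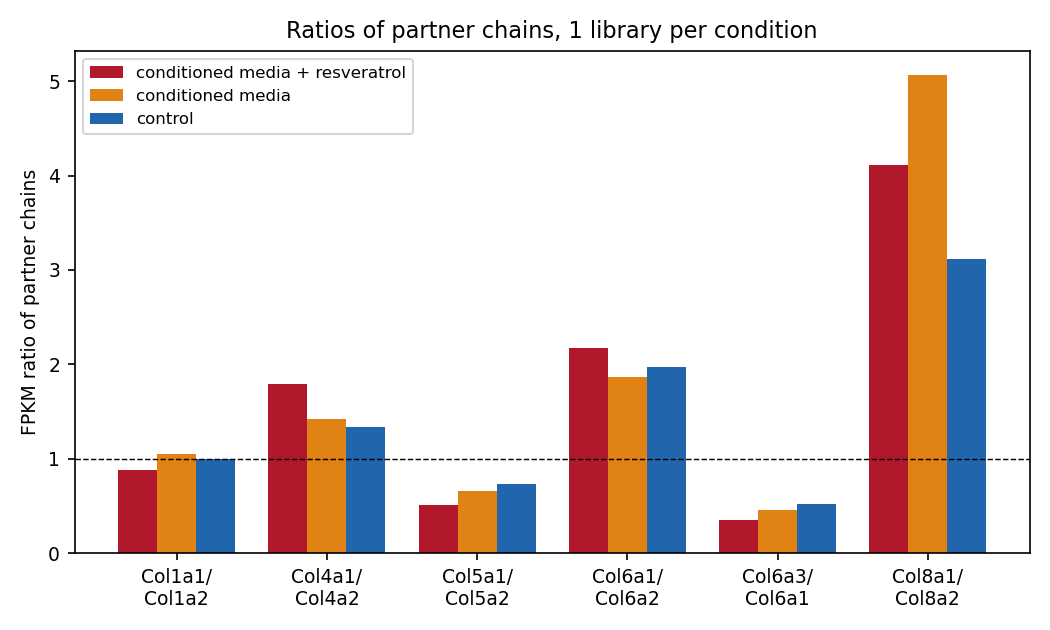
FPKM ratio of 6 pairs of partner chains in each library, as bars from 0 with a dashed line at 1. The ratio of Col4a1 to Col4a2 is 1.79 with resveratrol, 1.42 in conditioned media and 1.34 in control, and that of Col6a3 to Col6a1 is 0.355 with resveratrol, 0.457 in conditioned media and 0.519 in control. Col4a1 and Col4a2 share a span, and how reads were divided there is not given.

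The 25 genes under a mean of 1 FPKM were read as levels only. The highest mean among them was 0.843 FPKM, for Col25a1, a transmembrane collagen at 0.389 FPKM with resveratrol, 1.12 FPKM in conditioned media and 1.03 FPKM in control. Col14a1, a FACIT, had a mean of 0.553 FPKM, Col26a1 one of 0.540 FPKM, Col11a2 one of 0.463 FPKM and Col23a1 one of 0.363 FPKM. On the other side of the filter, Col27a1 had a mean of 1.37 FPKM and Col11a1 one of 3.17 FPKM. Of the cartilage genes of the family, Col2a1 and Col10a1 were near 0, while Col27a1 passed the filter. Col2a1, the main cartilage fibril chain, was at 0.0324 FPKM with resveratrol, 0.124 FPKM in conditioned media and 0.011 FPKM in control. Col10a1, a growth plate chain, was at 0.0688 FPKM with resveratrol, 0.144 FPKM in conditioned media and 0.0756 FPKM in control. Col9a1 was listed at 0 in all 3 libraries. The type IV chains Col4a3 and Col4a4, which replace Col4a1 and Col4a2 in the kidney filter, stood at 0.0304 FPKM or less. Conditioned media was above control for 21 of the 25 genes (84.0%), against 64.6% of 5422 single-symbol loci under 1 FPKM and above 0, and the resveratrol library was below conditioned media for 22 (88.0%), against 66.2%. These values rest on an unknown number of reads.

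Genes that act on collagens were read from 5 lists, with the resveratrol library against conditioned media first. In that comparison the size rule was passed by 4.97% of all loci on the lower side and 1.53% on the higher side. These shares were 0.751% and 1.98% for conditioned media over control, and 5.25% and 3.6% for resveratrol over control. With lists this small, 0 past the rule is not read as a lack of change. Of 22 genes that modify or fold collagen chains 21 were measured, with a median of -0.19, and 16 had ratios below 0 against 47.4% of all loci. P4ha2, a prolyl hydroxylase subunit, was the 1 that passed the size rule, against 4.97% of all loci lower and 1.53% higher, at 50.5 FPKM with resveratrol, 107 FPKM in conditioned media and 82.1 FPKM in control (log2 ratio -1.07). Serpinh1, the collagen chaperone HSP47, was at 428 FPKM with resveratrol, 644 FPKM in conditioned media and 679 FPKM in control (log2 ratio -0.59). Fkbp10, a prolyl isomerase, was at 67.4 FPKM with resveratrol, 100.4 FPKM in conditioned media and 102 FPKM in control (log2 ratio -0.57), in a span shared by 2 loci. Tmem38b, an endoplasmic reticulum ion channel, was on the other side, at 54.8 FPKM with resveratrol, 34.1 FPKM in conditioned media and 40.0 FPKM in control (log2 ratio 0.67), and holds a small RNA gene whose reads the value may include. In conditioned media against control the list had a median of 0.00088, with 11 above 0, 10 below 0 and 0 past the size rule. There Fkbp14 (25.6 FPKM in conditioned media and 38.7 FPKM in control) and P3h4 (39.0 against 55.6 FPKM) had the lowest ratios, -0.58 and -0.50, and P4hb and Plod1 the highest, 0.41 and 0.39. In resveratrol over control the median was -0.14, which turned to 0.044 after rescaling to TPM, with 0 past the rule and Fkbp14 (-0.85), Colgalt1 (-0.77), Creb3l1 (-0.72) and P3h4 (-0.69) furthest from 0. The span of Colgalt1 is shared by 3 loci.

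Of 14 genes that cut propeptides or cross-link fibrils 11 were measured, 10 with ratios below 0, against 47.4% of all loci, and a median of -0.36 with resveratrol over conditioned media. Loxl4, a lysyl oxidase, was the 1 past the size rule on the lower side, against 4.97% of all loci, at 2.46 FPKM with resveratrol, 9.70 FPKM in conditioned media and 5.47 FPKM in control (log2 ratio -1.63). Loxl1 was at 25.1 FPKM with resveratrol, 45.9 FPKM in conditioned media and 72.5 FPKM in control (log2 ratio -0.84). Pcolce2, an enhancer of propeptide cleavage, was at 6.69 FPKM with resveratrol, 11.1 FPKM in conditioned media and 15.1 FPKM in control (log2 ratio -0.65). Loxl3 ran the other way, at 53.6 FPKM with resveratrol, 26.6 FPKM in conditioned media and 25.8 FPKM in control (log2 ratio 0.99), in a span shared by 4 loci. It also holds a small RNA gene whose reads the value may include. Conditioned media over control had a median of 0.042 with 0 past the rule, where Loxl4 (0.73) and Loxl1 (-0.65) lay at the ends and Adamts14, a procollagen peptidase, had -0.51. In resveratrol over control 1 of the 11 passed the rule on the higher side, Loxl3 (1.03), and 2 on the lower, Loxl1 (-1.49) and Pcolce2 (-1.07), against 3.6% and 5.25% of all loci.

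Of 10 fibril partners 7 were measured, with a median of -0.19 for resveratrol over conditioned media. The rule was passed by 0 of them, against 4.97% of all loci lower and 1.53% higher. Fmod, fibromodulin, was at 40.6 FPKM with resveratrol, 71.0 FPKM in conditioned media and 68.5 FPKM in control (log2 ratio -0.79). Postn, periostin, was at 205 FPKM with resveratrol, 354 FPKM in conditioned media and 322 FPKM in control (log2 ratio -0.78). Prelp was at 40.6 FPKM with resveratrol, 66.5 FPKM in conditioned media and 48.5 FPKM in control (log2 ratio -0.70). Ogn was on the other side, at 407 FPKM with resveratrol, 339 FPKM in conditioned media and 442 FPKM in control (log2 ratio 0.26). The span of Ogn is shared by 6 loci. Dcn, decorin, was at 43.6 FPKM with resveratrol, 48.9 FPKM in conditioned media and 27.8 FPKM in control, and its log2 ratio of 0.79 for conditioned media over control was the largest of the list. The list had medians of 0.15 for that comparison and -0.12 for resveratrol over control, the second of which turned to 0.077 after rescaling to TPM, with 0 past the rule in each. Of 11 receptor and uptake genes 6 were measured, the median being -0.45 and 0 genes passing the rule, against the same shares of all loci. Ddr2, a receptor kinase for fibrillar collagen, was at 18.9 FPKM with resveratrol, 37.4 FPKM in conditioned media and 33.8 FPKM in control (log2 ratio -0.95). Its span is shared by 2 loci. Itga10, a collagen-binding integrin subunit, was at 0.321 FPKM with resveratrol, 1.47 FPKM in conditioned media and 2.17 FPKM in control (log2 ratio -0.90). Mrc2, a collagen uptake receptor, was on the other side, at 59.7 FPKM with resveratrol, 42.3 FPKM in conditioned media and 43.6 FPKM in control (log2 ratio 0.49). In conditioned media over control the receptor median was -0.046 with 0 past the rule. In resveratrol over control the median was -0.38, and Itga10 (-1.26) was the 1 past the rule, on the lower side, against 5.25% of all loci.

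Of 21 regulators of collagen transcription 19 were measured, with a median of -0.092 for resveratrol over conditioned media, 2 higher and 1 lower by the size rule, against 1.53% and 4.97% of all loci. The 2 were Cebpb, at 38.5 FPKM with resveratrol, 14.9 FPKM in conditioned media and 14.1 FPKM in control (log2 ratio 1.31), and Snai1, at 70.1 FPKM with resveratrol, 34.1 FPKM in conditioned media and 35.8 FPKM in control (log2 ratio 1.02). The 1 was Tgfb2, a ligand of the TGF-beta receptors, at 4.35 FPKM with resveratrol, 11.2 FPKM in conditioned media and 12.0 FPKM in control (log2 ratio -1.19). The ligand Tgfb1 ran the other way, at 40.1 FPKM with resveratrol, 25.3 FPKM in conditioned media and 26.7 FPKM in control (log2 ratio 0.64). Tgfb3 was at 44.0 FPKM with resveratrol, 58.5 FPKM in conditioned media and 59.2 FPKM in control (log2 ratio -0.40). Nfya, a subunit of NF-Y, was at 16.6 FPKM with resveratrol, 9.36 FPKM in conditioned media and 11.6 FPKM in control (log2 ratio 0.76), while the subunit Nfyb was at 14.4 FPKM with resveratrol, 23.6 FPKM in conditioned media and 15.2 FPKM in control (log2 ratio -0.67). In conditioned media over control the median was -0.064 with 0 past the rule, and Scx, scleraxis, a tendon factor, had the lowest ratio (-0.93), at 23.4 FPKM with resveratrol, 32.6 FPKM in conditioned media and 63.2 FPKM in control, in a span shared by 4 loci. In resveratrol over control 1 was higher, Cebpb (1.38), and 2 were lower, Scx (-1.40) and Tgfb2 (-1.28), against 3.6% and 5.25% of all loci.

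**Figure D5:**
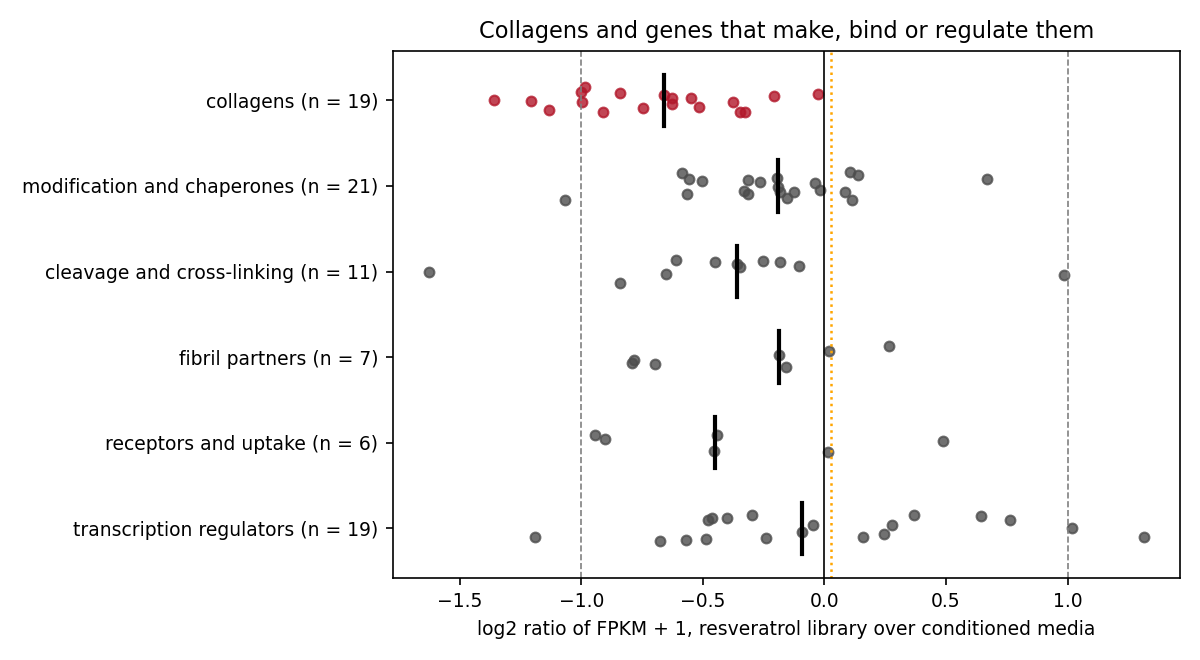
Log2 ratio of FPKM + 1 for resveratrol with conditioned media over conditioned media, with 1 point per gene for the 19 collagens and 5 lists, thick bars at medians, dashed lines at 1 and -1 and a dotted line at the median of all loci. The collagen median is -0.66, and those of the 5 lists run from -0.45 for receptors and uptake to -0.092 for regulators. The order of the lists changes without hosts of small RNA genes and shared spans, where the medians are -0.45 for cleavage and cross-linking, -0.44 for fibril partners, -0.23 for modification, -0.22 for receptors and -0.046 for regulators.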

How the data were processed

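RNA from 3 libraries of C2C12 myotubes, 1 per medium, was placed in groups by the treatment labels. Per the submitters' processing notes, the build was mm10 and the tools were Cuffdiff 2.2.1.3, Cufflinks 2.2.1.0, Bowtie, TopHat2 2.1.0, Trim Galore 0.4.3.1 and FastQC 0.69. The sources used here do not name the annotation, strand setting or scaling. The deposited FPKM were computed by the authors. The deposited log2 fold changes have no pseudocount, and the deposited test statistic is a score; the p-values and q-values are the authors' too, with a smallest p of 5e-05.

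Ratios were log2((FPKM + 1)/(FPKM + 1)), for a mean of 1 FPKM or more, and the size rule asked for an absolute value of 1. All 19 measured members are named, and up to 4 genes per list and comparison, with a few related genes beside them. Members, classes and lists were chosen with earlier results of these data known. Sums per library are over the deposited loci; loci of 200 bases or less hold most of the FPKM (long loci hold 21.6% with resveratrol, 20.7% in conditioned media and 17.0% in control). Depth is unknown, since FPKM keeps no counts, so no interval was given. Starts, which count from 0 in the table (start plus 1 matched RefSeq in 10487 of 22348 loci, start itself in 617), are given from 1. Exons came from GENCODE M21 and promoter windows from RefSeq. Python 3.11.15 and pandas 2.3.3 were used. No sample column was left unused. Alternatives were 2 other pseudocounts, 2 other filters, 3 scalings, 1.5-fold, the authors' calls, summed loci, and leaving out hosts of small RNA genes and shared spans.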

Additional observations from a re-analysis of the deposited data

How the results depend on the processing

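The lower ratio of all 19 measured genes with resveratrol over conditioned media was found under each scaling tried. Each of those scalings lowers resveratrol relative to conditioned media, so none could have turned a sign. The count past the size rule was not stable. For resveratrol over conditioned media, 4 lower genes became 1 at a pseudocount of 5 or after rescaling to TPM, 2 at a mean of 5 FPKM or more, 12 at 1.5-fold and 17 by the authors' calls. Of the 4, Col12a1 is the one left at a pseudocount of 5 and after rescaling to TPM, where Col11a1 was at -0.60 and -0.81, Col27a1 at -0.41 and -0.60, and Col1a1 at -0.995 and -0.999. Col11a1 and Col27a1 are also the ones that a mean of 5 FPKM leaves out. Rescaling to TPM lowers every value before 1 is added, so it also acts as a larger pseudocount. Between these 2 libraries it does little else, since their sums over all loci were 2.957e+06 FPKM with resveratrol and 2.954e+06 FPKM in conditioned media. Col5a3 passed as well at a pseudocount of 0.1 (5 genes), and Col5a3 and Col6a3 after centring or rescaling to loci over 200 bases (6 genes). For resveratrol over control, 3 lower became 1 at a pseudocount of 5 and after rescaling to TPM, 10 at 1.5-fold and 15 by the authors' calls, and 0 higher became 2 by the authors' calls. For conditioned media over control, 0 higher became 1 at 1.5-fold and 11 by the authors' calls, and 0 lower became 1 and 3. The FACIT median was -0.13 for resveratrol over conditioned media and -3.94e-05 for resveratrol over control with no filter, when 9 genes, most near 0, were taken in. Medians of the modification list and of the fibril partners, -0.14 and -0.12 for resveratrol over control, turned to 0.044 and 0.077 after rescaling to TPM. Without hosts of small RNA genes and shared spans, the type IV median for resveratrol over conditioned media was -0.63 in place of -0.35, the receptor median -0.22 in place of -0.45, that of fibril partners -0.44 in place of -0.19 and that of cleavage and cross-linking -0.45 in place of -0.36. Leaving out Col3a1, Col4a1, Col4a2 and Col27a1, which hold a small RNA gene or share a span, set the type IV share of the collagen sum at 0.227% with resveratrol, 0.212% in conditioned media and 0.238% in control, and the FACIT share at 3.42% with resveratrol and 4.64% in conditioned media, by construction. A move was counted past 1.5-fold. Rescaling over loci above 200 bases was chosen after seeing the data. No paired analysis was possible because each condition has 1 library, and no replicate could be left out.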
